A study of Mus musculus with 7 samples.

Results

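The genes described here are 37 named mouse genes of glycolysis and of the response to low oxygen, measured in PDGF-B induced mouse gliomas. A gene was taken from the array's gene annotation where a probe set (here called a probe) listed that gene symbol and no other, and the brightest such probe by its mean over all 7 arrays stood for the gene. Of the 37 genes, 35 were found this way, among 18193 genes with such a probe, and Gpi1 and Eno1 were not analysed here. Gapdh was found through 3 control probes of the array and was fitted separately. Car9 and P4ha2 had a mean log2 value under 3.99, the 25th percentile of all probes, and were not tested. That left 32 tested genes of 14453. By role, 17 of the 37 are glycolytic enzymes, 7 are transporters or flux regulators, 4 sense oxygen and 9 are non-glycolytic hypoxia genes.

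RNA came from 4 secondary and 3 tertiary gliomas. All were grown from C57/Bl6 glioma cells that overexpress PDGF-B together with EGFP from 1 bicistronic transcript, and all hosts were immunodeficient NOD/SCID mice. A secondary glioma grew from transplanted cells of a primary glioma of early onset and low grade, and a tertiary glioma grew from transplanted secondary glioma cells. Tumours were dissected when the hosts showed symptoms, dissociated with trypsin, and sorted by flow cytometry for EGFP before RNA extraction. The PDGF-B is a transgene, and NOD/SCID mice lack functional B and T cells but keep myeloid cells. The labels call the samples biological replicates without naming the donor tumour, host or host age, so p-values measure the spread between these samples only.

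The 7 arrays had medians between 5.57 and 5.64 on the log2 scale, and pairs of arrays correlated at 0.82 to 0.98 over the genes tested. All 20 tested microglia and macrophage markers of 22 listed were called lower in tertiary gliomas, led by Fcer1g, Ptprc, Trem2 and Cd68, with a median log2 fold change of -4.15. Their mean level lay between 10.05 and 10.84 in the secondary gliomas and was 6.47, 6.76 and 5.94 in tertiary gliomas 1 to 3. In 2 of the 20 the tertiary mean was under 3.99, the level below which a gene was not tested. Oligodendrocyte precursor markers, such as Sox10 and Vcan, had means of 10.13 to 10.56 in secondary and 10.18 to 10.67 in tertiary gliomas, and 0 of 10 were called by limma, with 0 at an unadjusted p under 0.05. Fewer cells of a type and less RNA per cell cannot be told apart in such samples. Tertiary glioma 1 stood apart from the other tertiary gliomas in many of the genes described here, and the results are given with and without it.

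Glycolysis splits glucose into pyruvate, and lactate dehydrogenase turns pyruvate into lactate when mitochondria do not take it up. In low oxygen, prolyl hydroxylases of the Egln family stop marking the HIF alpha subunits for destruction, and HIF binds short ACGTG or GCGTG elements near its target genes. Many glycolytic genes are HIF targets, and hypoxic glioma tissue is known for high levels of glucose transporters, lactate dehydrogenase and adrenomedullin.

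The promoters of Ero1a, Pfkp, Bnip3, Pgk1 and Ldha are shown because Ero1a and Pfkp rose in tertiary gliomas, and Bnip3, Pgk1 and Ldha were called higher in fits that left out tertiary glioma 1 or weighted the arrays, though not in the fit of all 7 samples with equal weights. Each window runs from 250 bases before to 50 bases after the transcription start in RefSeq, build GRCm38.p6, and is printed along the gene's own strand. Capitals mark every ACGTG or GCGTG on either strand, so that CACGT and CACGC are the reverse forms, and matches may overlap.
Ero1a: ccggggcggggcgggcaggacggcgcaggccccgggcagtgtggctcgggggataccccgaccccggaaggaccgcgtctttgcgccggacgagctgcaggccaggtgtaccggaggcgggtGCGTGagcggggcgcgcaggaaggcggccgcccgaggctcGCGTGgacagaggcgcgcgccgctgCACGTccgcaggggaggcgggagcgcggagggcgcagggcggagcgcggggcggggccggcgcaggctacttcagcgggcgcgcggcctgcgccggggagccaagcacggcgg
Pfkp: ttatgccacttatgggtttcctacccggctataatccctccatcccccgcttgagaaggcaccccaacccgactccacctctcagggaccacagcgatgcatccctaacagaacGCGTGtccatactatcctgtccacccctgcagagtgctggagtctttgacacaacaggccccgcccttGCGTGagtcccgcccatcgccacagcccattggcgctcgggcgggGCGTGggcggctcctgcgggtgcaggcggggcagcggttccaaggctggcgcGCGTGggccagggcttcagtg
Bnip3: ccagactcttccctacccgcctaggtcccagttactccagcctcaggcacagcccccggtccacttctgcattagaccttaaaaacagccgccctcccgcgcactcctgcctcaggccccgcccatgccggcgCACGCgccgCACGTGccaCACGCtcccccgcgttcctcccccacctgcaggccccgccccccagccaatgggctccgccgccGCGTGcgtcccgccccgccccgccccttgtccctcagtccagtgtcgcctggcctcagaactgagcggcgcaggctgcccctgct
Pgk1: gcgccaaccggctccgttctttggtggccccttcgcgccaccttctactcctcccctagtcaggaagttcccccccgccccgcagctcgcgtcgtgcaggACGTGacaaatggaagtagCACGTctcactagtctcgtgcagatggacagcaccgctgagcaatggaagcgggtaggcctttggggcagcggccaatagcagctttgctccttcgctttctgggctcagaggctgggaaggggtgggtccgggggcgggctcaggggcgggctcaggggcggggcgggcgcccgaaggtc
Ldha: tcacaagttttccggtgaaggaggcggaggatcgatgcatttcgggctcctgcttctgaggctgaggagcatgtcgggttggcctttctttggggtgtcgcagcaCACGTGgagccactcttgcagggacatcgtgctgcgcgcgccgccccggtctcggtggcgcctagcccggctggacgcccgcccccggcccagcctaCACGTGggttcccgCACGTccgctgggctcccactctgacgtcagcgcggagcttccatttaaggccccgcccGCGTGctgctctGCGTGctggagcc
The windows lie at chr14:45318523-45318822 (minus strand) for Ero1a, chr13:6648722-6649021 (minus) for Pfkp, chr7:138909457-138909756 (minus) for Bnip3, chrX:106186850-106187149 (plus) for Pgk1 and chr7:46845554-46845853 (plus) for Ldha. They hold 3, 4, 5, 2 and 7 matches in that order. Ldha has 2 promoters in the table, of which the first is shown, and the other held 2 matches. Ankrd37, Tpi1 and Pdk1 were also called higher without tertiary glioma 1, and their promoters are not printed. These held 4 matches in Ankrd37, 0 in Tpi1, and 2 and 0 in the promoters of Pdk1. Of 49 promoters listed for 34 of the 37 genes, 40 (81.6%) held at least 1 match, against 8641 of 14750 promoters (58.6%) of all genes tested. By gene these were 31 of 34 (91.2%) against 7441 of 11582 (64.2%). The 34 include Gapdh, Car9, P4ha2, Gpi1 and Eno1, which are not among the genes tested. The genes were listed for glycolysis and the response to low oxygen, and many are known HIF targets. A higher share than in all genes is therefore no finding about these gliomas. Eno2, Gpi1 and Tpi1 had no match in this window, which describes only these letters.

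Tertiary gliomas were compared with secondary gliomas with limma on the log2 values, and a gene is said to be called where its Benjamini-Hochberg adjusted p over the 14453 genes was under 0.05. Among the 32 tested genes Ero1a and Pfkp rose and Ndrg1 fell. The 3 calls are 9.38% of the 32, beside 7.38% of all genes tested. By direction, 2 of 32 were called higher (1.04% of all genes) and 1 of 32 was called lower (6.33% of all genes). The groups did not overlap in 8 of 32, against 21.9% of all genes, so the share without overlap was near the background. A log2 fold change above 0 was found in 21 of 32 (60.6% of all genes), and the median was 0.17 against 0.09 over all genes. An unadjusted p under 0.05 was found in 13 of 32, against 23.8% of all genes.

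**Figure D1:**
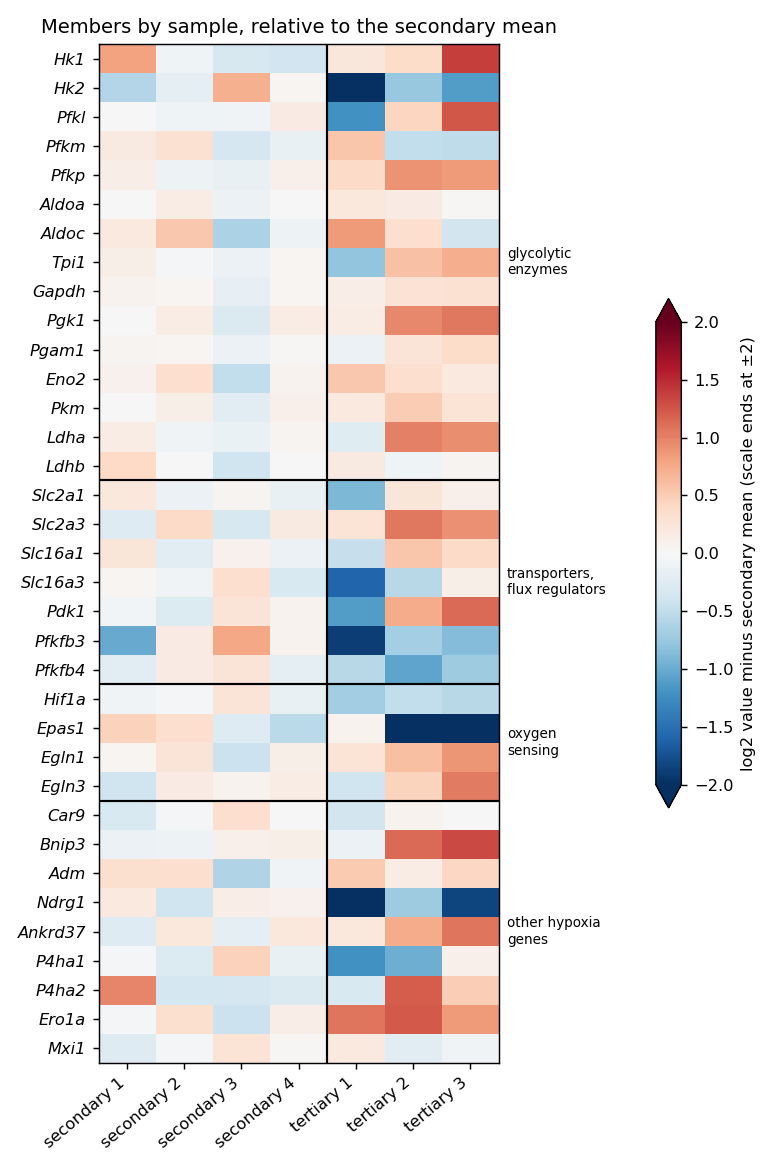
Heat map of the 35 genes found, grouped by role (rows), in each of the 7 samples (columns). Colour gives the log2 value minus the mean of the 4 secondary gliomas, with the scale ending at ±2, and Ero1a and Pfkp are high in every tertiary glioma while Hk2, Ndrg1 and Hif1a are low in every one.

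Among the glycolytic enzymes, phosphofructokinase P rose and no enzyme was called lower, while Hk2 read lower in every tertiary glioma without passing the test. Of the 17 listed, 14 were tested, 1 was called higher and 0 were called lower, and 12 of 14 had a log2 fold change above 0. Their median log2 fold change was 0.22, and 3 of 14 had an unadjusted p under 0.05 (Pfkp, Pgk1 and Hk2).

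Pfkp encodes the platelet type subunit of phosphofructokinase, the enzyme of the committed step of glycolysis. It read 7.42, 7.19, 7.13 and 7.39 in secondary gliomas 1 to 4 and 7.67, 8.19 and 8.13 in tertiary gliomas 1 to 3. Every tertiary glioma lay above every secondary glioma. The means were 7.28 ± 0.14 (SD, n = 4) and 8.00 ± 0.29 (SD, n = 3), a log2 fold change of 0.71 ± 0.17 (SE), or 1.64-fold, with a limma adjusted p of 0.0460. The call lay close to the threshold. It was lost without secondary glioma 1, 2, 3 or 4 (adjusted p 0.0680, 0.116, 0.104 and 0.0890) and without tertiary glioma 2 or 3 (0.165 and 0.156), and was kept without tertiary glioma 1 (0.0130). It was also lost with no dim filter (0.0508) and with trended and robust variances (0.0550), and 8 of 17 alternatives with 1 value per gene kept it. With every probe tested on its own, none of its 3 probes was called (log2 fold changes 0.71, 0.74 and 0.53, adjusted p 0.0557, 0.140 and 0.0640).

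The other phosphofructokinase subunits did not share this pattern. Pfkl, the liver type subunit, read 7.98, 7.89, 7.91 and 8.15 in the secondary gliomas and 6.77, 8.41 and 9.23 in the tertiary gliomas. Tertiary glioma 1 was the lowest of all 7 samples and tertiary gliomas 2 and 3 were the highest, so the log2 fold change was 0.15 ± 0.50 (SE, adjusted p 0.883). Pfkm, the muscle type subunit, read 8.72, 8.84, 8.21 and 8.39 in the secondary gliomas and 9.10, 8.04 and 8.04 in the tertiary gliomas. Its order was the reverse of that of Pfkl, with tertiary glioma 1 the highest and tertiary gliomas 2 and 3 the lowest of the 7 samples.

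Hexokinases phosphorylate glucose on entry and keep it in the cell. Hk2, the inducible hexokinase, read 7.81, 8.22, 9.10 and 8.43 in the secondary gliomas and 5.10, 7.64 and 7.27 in the tertiary gliomas. The groups did not overlap, with tertiary glioma 1 far below the rest. The means were 8.39 ± 0.54 (SD, n = 4) and 6.67 ± 1.37 (SD, n = 3), and the log2 fold change of -1.72 ± 0.60 (SE) was not called (adjusted p 0.138). Myeloid markers fell in the same comparison, and the part of myeloid RNA in the Hk2 values was not tested. Hk1, the hexokinase of most brain cells, read 7.76, 6.86, 6.63 and 6.57 in the secondary gliomas and 7.18, 7.32 and 8.34 in the tertiary gliomas, and the groups overlapped. Its log2 fold change was 0.65 ± 0.37 (SE, adjusted p 0.328).

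Pgk1, Tpi1 and Pgam1, of the middle and later steps, were higher in tertiary gliomas 2 and 3 but not in tertiary glioma 1. Pgk1, the phosphoglycerate kinase that makes ATP, read 10.18, 10.33, 9.89 and 10.33 in the secondary gliomas and 10.33, 11.15 and 11.24 in the tertiary gliomas. Its log2 fold change was 0.72 ± 0.24 (SE, adjusted p 0.128). Tertiary glioma 1 matched the highest secondary gliomas, and the other tertiary gliomas were above them all. Tpi1, triose phosphate isomerase, read 9.53, 9.38, 9.30 and 9.45 in the secondary gliomas and 8.62, 9.99 and 10.14 in the tertiary gliomas (log2 fold change 0.17 ± 0.35, SE, adjusted p 0.802). Here tertiary glioma 1 was the lowest of the 7 samples. Pgam1, phosphoglycerate mutase, lay between 10.42 and 10.60 in the secondary gliomas and at 10.43, 10.80 and 10.90 in the tertiary gliomas.

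Ldha, the lactate dehydrogenase subunit that favours lactate, was also higher in tertiary gliomas 2 and 3 but not in tertiary glioma 1. It read 9.96, 9.74, 9.67 and 9.87 in the secondary gliomas and 9.57, 10.81 and 10.74 in the tertiary gliomas. Tertiary glioma 1 lay below every secondary glioma and the other tertiary gliomas above all of them. The means were 9.81 ± 0.13 (SD, n = 4) and 10.37 ± 0.70 (SD, n = 3), and the log2 fold change of 0.56 ± 0.30 (SE) was not called (adjusted p 0.292). Ldhb, the subunit that favours pyruvate, lay between 10.26 and 11.05 in the secondary and 10.57 and 10.84 in the tertiary gliomas, with a log2 fold change of 0.05 ± 0.19 (SE).

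The remaining enzymes had small fold changes and none was called. Pkm, pyruvate kinase, read 9.93, 10.04, 9.70 and 10.03 in the secondary gliomas and 10.12, 10.43 and 10.20 in the tertiary gliomas. Its groups did not overlap, and the log2 fold change was 0.32 ± 0.15 (SE, adjusted p 0.226). Gapdh, the dehydrogenase after the aldolase step, read 11.96, 11.94, 11.73 and 11.93 on its brightest control probe in the secondary gliomas and 12.02, 12.17 and 12.19 in the tertiary gliomas. These groups did not overlap either, and with this probe added to the fit the log2 fold change was 0.24 ± 0.13 (SE, adjusted p 0.295). Log2 fold changes of the aldolases Aldoa and Aldoc were 0.13 and 0.27, and that of Eno2, the neuronal enolase, was 0.36, all with overlapping groups.

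**Figure D2:**
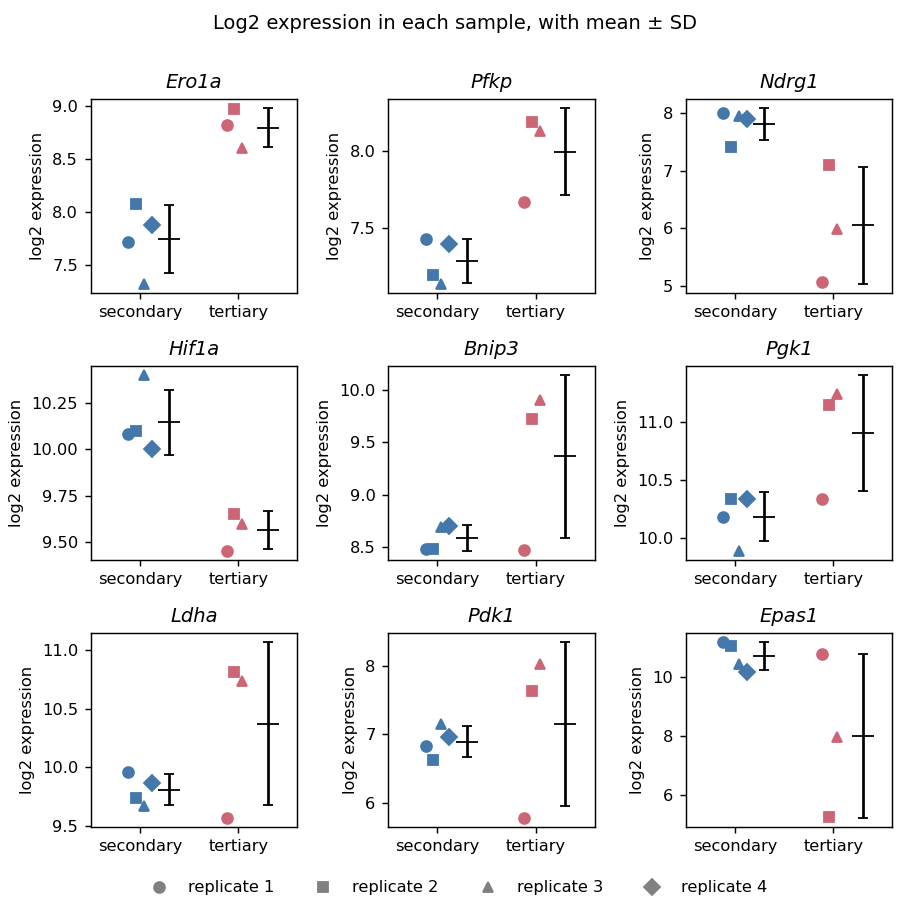
Log2 expression of 9 genes in each of the 4 secondary and 3 tertiary gliomas, with a symbol for each replicate and the mean ± SD as a bar beside the points. In Bnip3, Pgk1, Ldha and Pdk1 the circle of tertiary glioma 1 lies below the other tertiary gliomas, while in Epas1 it lies above them (10.79 against 5.23 and 7.97).

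Of the transporters and flux regulators 0 of 7 were called by limma in either direction, 3 of 7 had an unadjusted p under 0.05 (Slc2a3, Pfkfb3 and Pfkfb4), and the median log2 fold change was -0.18. Tertiary glioma 1 was the lowest tertiary glioma in 6 of the 7.

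The glucose transporters differed from each other. Slc2a3, the high affinity transporter GLUT3, read 7.90, 8.54, 7.82 and 8.34 in the secondary gliomas and 8.42, 9.20 and 9.06 in the tertiary gliomas. Tertiary gliomas 2 and 3 were above every secondary glioma and tertiary glioma 1 was within their range (log2 fold change 0.74 ± 0.25, SE, adjusted p 0.132). Slc2a1, the basal transporter GLUT1, read 10.01, 9.69, 9.86 and 9.65 in the secondary gliomas and 8.90, 10.05 and 9.91 in the tertiary gliomas, with tertiary glioma 1 the lowest of the 7 samples.

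The lactate carriers MCT1 and MCT4 are encoded by Slc16a1 and Slc16a3. Slc16a1 read 8.26, 7.79, 8.11 and 7.90 in the secondary gliomas and 7.55, 8.58 and 8.40 in the tertiary gliomas. Slc16a3 read 6.74, 6.63, 7.04 and 6.40 in the secondary gliomas and 5.12, 6.15 and 6.81 in the tertiary gliomas. In both genes the groups overlapped and tertiary glioma 1 was the lowest of all samples, and the log2 fold changes were 0.16 ± 0.26 and -0.68 ± 0.37 (SE).

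Pdk1 encodes the kinase that shuts pyruvate dehydrogenase and keeps pyruvate out of the mitochondria. It read 6.83, 6.62, 7.15 and 6.97 in the secondary gliomas and 5.78, 7.64 and 8.03 in the tertiary gliomas. The tertiary gliomas lay on both sides of the secondary range, and the log2 fold change was 0.26 ± 0.49 (SE, adjusted p 0.790).

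Pfkfb3 and Pfkfb4 make and remove the sugar bisphosphate that activates phosphofructokinase. Pfkfb4 read 6.44, 6.84, 6.93 and 6.48 in the secondary gliomas and 6.12, 5.61 and 5.96 in the tertiary gliomas, without overlap. Its log2 fold change of -0.77 ± 0.19 (SE) just missed the threshold (adjusted p 0.0517). Pfkfb3 read 7.20, 8.37, 8.97 and 8.28 in the secondary gliomas and 6.33, 7.53 and 7.34 in the tertiary gliomas, and the groups overlapped through secondary glioma 1 (log2 fold change -1.14 ± 0.44, SE, adjusted p 0.172).

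Among the 4 oxygen sensing genes 0 were called by limma, and 3 had an unadjusted p under 0.05 (Hif1a, Epas1 and Egln1). The median log2 fold change of the 4 was -0.11. Hif1a encodes the HIF alpha subunit found in most cells. It read 10.08, 10.10, 10.40 and 10.00 in the secondary gliomas and 9.45, 9.65 and 9.60 in the tertiary gliomas. Every tertiary glioma was below every secondary glioma. The means were 10.14 ± 0.17 (SD, n = 4) and 9.57 ± 0.10 (SD, n = 3), and the log2 fold change of -0.58 ± 0.14 (SE) just missed the threshold (adjusted p 0.0522). It was called lower with quantile normalization (adjusted p 0.0398), trended and robust variances (0.0378) and array weights (0.0332). It was not called in the other alternatives with 1 value per gene, such as the fit without tertiary glioma 1 (0.0766). Its 4 probes gave log2 fold changes of -0.58, -0.60, -0.72 and -1.34. With every probe tested on its own none was called (adjusted p 0.0662, 0.132, 0.0877 and 0.121). Myeloid markers fell beside it, and their part in the Hif1a values was not tested.

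Epas1 encodes the second HIF alpha subunit, known from endothelial cells and astrocytes. It read 11.19, 11.07, 10.46 and 10.19 in the secondary gliomas and 10.79, 5.23 and 7.97 in the tertiary gliomas. Tertiary glioma 1 was within the secondary range and the other tertiary gliomas were far below it. The means were 10.73 ± 0.48 (SD, n = 4) and 8.00 ± 2.78 (SD, n = 3), and the log2 fold change of -2.73 ± 1.11 (SE) was not called with all samples (adjusted p 0.188). Its second probe read 10.36, 10.09, 9.21 and 9.26 in the secondary gliomas and 9.93, 4.60 and 6.95 in the tertiary gliomas. The tertiary gliomas had the same order on both probes. The mean of the astrocyte markers had this order in the tertiary gliomas, though not every marker did. It was 7.64, 6.58 and 6.67 in tertiary gliomas 1 to 3 and 7.22 to 8.15 in the secondary gliomas. Aqp4, the water channel of astrocytes, read 6.42, 3.86 and 3.86 in the tertiary gliomas. Gfap, named after its values were seen, read 5.57, 6.52 and 5.97 there. It was the 1 of 9 tested astrocyte markers in which tertiary glioma 1 was the lowest tertiary glioma. Endothelial markers had means of 5.33, 5.12, 5.04 and 5.01 in secondary gliomas 1 to 4 and 4.95, 4.78 and 4.77 in tertiary gliomas 1 to 3, so tertiary glioma 1 was the highest tertiary glioma here too. The part of astrocyte or endothelial RNA in the Epas1 values was not tested.

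The prolyl hydroxylases had positive log2 fold changes. Egln1, the main oxygen sensor of most cells, read 8.96, 9.18, 8.50 and 9.04 in the secondary gliomas and 9.19, 9.52 and 9.80 in the tertiary gliomas, without overlap but with a margin of hundredths between secondary glioma 2 and tertiary glioma 1. Its log2 fold change was 0.58 ± 0.21 (SE, adjusted p 0.153). Egln3, which is itself raised by HIF, read 5.99, 6.56, 6.47 and 6.55 in the secondary gliomas and 5.99, 6.84 and 7.43 in the tertiary gliomas, with tertiary glioma 1 level with the lowest secondary glioma.

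Of the 9 non-glycolytic hypoxia genes 7 were tested, Ero1a rose and Ndrg1 fell. The median log2 fold change of the 7 was 0.36, which is the value of Adm, beside 0.22 in the glycolytic enzymes and 0.09 over all genes. With the mean of all probes the median of the 7 was 0.67. The medians rest on few genes, 4 of 7 hypoxia genes and 12 of 14 enzymes had a log2 fold change above 0, and the difference between the medians was not tested.

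Ero1a encodes the oxidase of the endoplasmic reticulum that drives disulfide bond formation in secreted proteins. It read 7.71, 8.07, 7.32 and 7.88 in the secondary gliomas and 8.82, 8.97 and 8.60 in the tertiary gliomas. Every tertiary glioma was clearly above every secondary glioma, and tertiary glioma 1 was between the other tertiary gliomas. The means were 7.75 ± 0.32 (SD, n = 4) and 8.80 ± 0.19 (SD, n = 3), a log2 fold change of 1.05 ± 0.20 (SE), or 2.07-fold, with an adjusted p of 0.0186. With every probe tested on its own, its 3 probes gave log2 fold changes of 1.05, 1.07 and 0.94, and the last was not called (adjusted p 0.0220, 0.0349 and 0.112). Of 17 alternatives fitted with 1 value per gene, 16 kept the call, and it was lost without tertiary glioma 2 (log2 fold change 0.96, adjusted p 0.0811).

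Ndrg1, a stress response gene that is also strong in myelinating glia, fell. It read 8.00, 7.41, 7.95 and 7.90 in the secondary gliomas and 5.07, 7.10 and 5.98 in the tertiary gliomas. The groups did not overlap, and tertiary glioma 2 came near the lowest secondary glioma. The means were 7.81 ± 0.27 (SD, n = 4) and 6.05 ± 1.02 (SD, n = 3), a log2 fold change of -1.77 ± 0.43 (SE), or 3.40-fold lower, with an adjusted p of 0.0493. The call was lost without secondary glioma 1, 2, 3 or 4 (adjusted p 0.108, 0.0790, 0.124 and 0.112) and without tertiary glioma 1 or 3 (0.0520 and 0.148), with log2 fold changes from -1.90 to -1.28. It was also lost with no dim filter (0.0689), quantile normalization (0.0514), median centring (0.0573), trended and robust variances (0.0505) and without both secondary glioma 3 and tertiary glioma 1 (0.102), and 5 of 17 alternatives kept it. With every probe tested on its own, 4 probes were above the dim filter, and 2 of them were called (log2 fold changes -1.49 and -0.97, adjusted p 0.0216 and 0.0476) and 2 were not (-1.77 and -0.68, adjusted p 0.0543 and 0.163). Oligodendrocyte markers were lower in the tertiary gliomas too. Within that group their mean was 7.07, 6.95 and 7.06 in tertiary gliomas 1 to 3, but single markers differed. Tertiary glioma 1, the lowest in Ndrg1, was the lowest tertiary glioma in 3 of the 9 tested markers. All 9 tested had a negative log2 fold change, 2 of 9 were called lower (Mog, -2.42 ± 0.26, SE, and Mag, -2.42 ± 0.38), and their mean was 7.91 to 8.75 in the secondary gliomas and 6.95 to 7.07 in the tertiary gliomas. The part of oligodendrocyte RNA in the Ndrg1 values was not tested.

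Bnip3 and Ankrd37 are HIF targets. As in Ldha and Pgk1, tertiary gliomas 2 and 3 lay above every secondary glioma and tertiary glioma 1 did not. Bnip3, a receptor for the removal of mitochondria, read 8.48, 8.49, 8.69 and 8.70 in the secondary gliomas and 8.47, 9.72 and 9.90 in the tertiary gliomas. Tertiary glioma 1 was level with the lowest secondary glioma and the others were about a log2 unit above the secondary range (log2 fold change 0.78 ± 0.33, SE, adjusted p 0.199). Ankrd37, an ankyrin repeat protein, read 5.39, 5.86, 5.47 and 5.86 in the secondary gliomas and 5.86, 6.38 and 6.72 in the tertiary gliomas (0.68 ± 0.23, SE, adjusted p 0.134).

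Adm, P4ha1 and Mxi1 overlapped between the groups. Adm, adrenomedullin, a vessel dilating peptide, read 11.54, 11.56, 10.62 and 11.14 in the secondary gliomas and 11.75, 11.37 and 11.63 in the tertiary gliomas, with a log2 fold change of 0.36 ± 0.25 (SE). Its other probe was far dimmer, at 4.82 to 5.99 in the secondary and 5.85 to 6.63 in the tertiary gliomas. With every probe tested on its own by limma, that probe had a log2 fold change of 0.97 and was not called (adjusted p 0.118). P4ha1, a collagen prolyl hydroxylase subunit, read 9.63, 9.39, 10.13 and 9.52 in the secondary gliomas and 8.46, 8.69 and 9.76 in the tertiary gliomas (-0.70 ± 0.33, SE, adjusted p 0.245). Mxi1, an antagonist of Myc, had a log2 fold change of -0.03 ± 0.17 (SE). Car9, a carbonic anhydrase at the cell surface and a widely used hypoxia marker, was dim in all samples, at 3.54 to 4.18 in the secondary and 3.48 to 3.92 in the tertiary gliomas. P4ha2, an alternative to P4ha1 as the alpha subunit of that enzyme, was dim too and read 4.73, 3.40, 3.43 and 3.47 in the secondary gliomas and 3.46, 4.97 and 4.25 in the tertiary gliomas.

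Tertiary glioma 1 stood apart from the other tertiary gliomas across these genes. It was the lowest of the 3 tertiary gliomas in 22 of 32 tested genes (68.8%, against 38.9% of all genes tested), while tertiary gliomas 2 and 3 were each the lowest in 5 of 32 (28.9% of all genes each). It was the lowest of all 7 samples in 13 of 32, against 14.0% of all genes. In 11 of 32, against 14.2% of all genes, tertiary gliomas 2 and 3 lay above every secondary glioma and tertiary glioma 1 did not. These were Pfkl, Tpi1, Pgk1, Pgam1 and Ldha among the enzymes, Slc2a3, Slc16a1 and Pdk1 among the transporters and regulators, and Egln3, Bnip3 and Ankrd37. The reverse, with tertiary gliomas 2 and 3 below every secondary glioma and tertiary glioma 1 not, was found in 2 of 32, Epas1 and Pfkm, against 5.58% of all genes.

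When each sample was left out in turn, the count of called genes among the 32 moved most without tertiary glioma 1. Then 9 of 32 were called higher, against 5.40% of all genes, and 2 of 32 lower, against 7.44%. Pfkp, Tpi1, Pgk1, Ldha, Slc2a3, Pdk1, Bnip3, Ankrd37 and Ero1a were the 9 higher, and Pfkfb4 and Epas1 the 2 lower. Of all genes 781 were called higher and 1076 lower in that fit. Without tertiary glioma 1 the log2 fold change of Bnip3 was 1.22 ± 0.14 (SE, adjusted p 0.00347) and that of Ldha 0.97 (adjusted p 0.00828). That of Epas1 was -4.12 ± 0.71 (SE, adjusted p 0.0152). The others called higher had values of 1.01 in Pgk1, 0.66 in Tpi1, 0.98 in Slc2a3, 0.94 in Pdk1, 0.91 in Ankrd37, 0.88 in Pfkp and 1.04 in Ero1a (adjusted p between 0.0130 and 0.0411), and Pfkfb4 had -0.89 (0.0380). Hk2 and Hif1a kept negative values without a call (-0.93 and -0.52), and Slc2a1 had 0.18 in place of -0.18. The median was 0.35 in the glycolytic enzymes, 0.18 in the transporters and regulators, 0.11 in the oxygen sensing genes and 0.28 in the non-glycolytic hypoxia genes, against 0.07 over all genes. The share of genes called also rose over the whole array, and the choice of this sample among the 7 was made with the values known. In the marker lists tertiary glioma 1 lay above the other tertiary gliomas in the astrocyte mean (7.64, beside 6.58 and 6.67) and between them in the microglia and macrophage mean (6.47, beside 6.76 and 5.94). Its oligodendrocyte mean was close to theirs (7.07, beside 6.95 and 7.06), but single markers went both ways. Mbp read 9.99 in tertiary glioma 1 beside 7.79 and 7.33, and Mobp 8.80 beside 6.86 and 5.98, while Cldn11 read 7.44 beside 9.85 and 10.39, and Myrf 3.80 beside 5.27 and 5.19. These markers are named after their values were seen, and the part of other cell types in the values of tertiary glioma 1 was not tested.

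**Figure D3:**
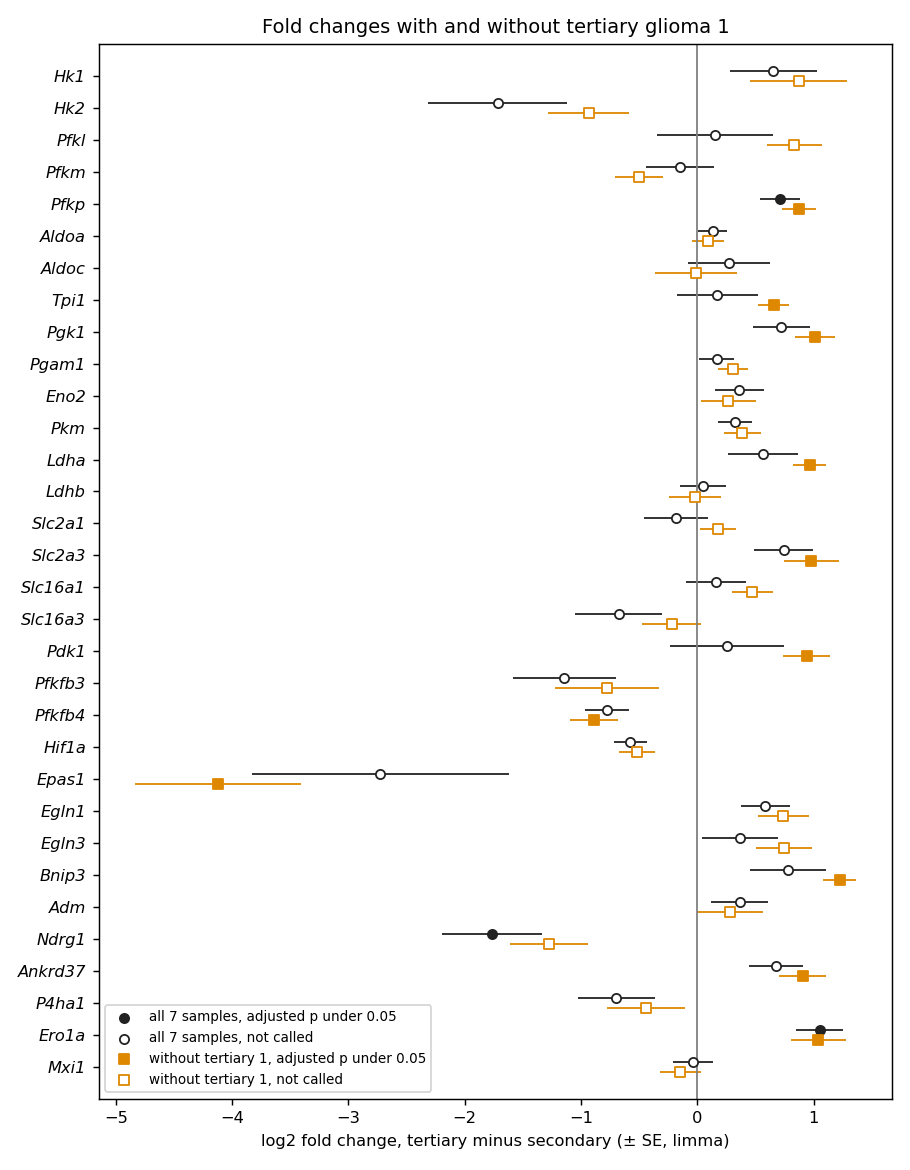
Log2 fold change, tertiary minus secondary, of the 32 tested genes with its standard error from limma, for all 7 samples (circles) and without tertiary glioma 1 (squares). Filled symbols have an adjusted p under 0.05, which holds for 3 genes with all samples and 11 without tertiary glioma 1.

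**Figure D4:**
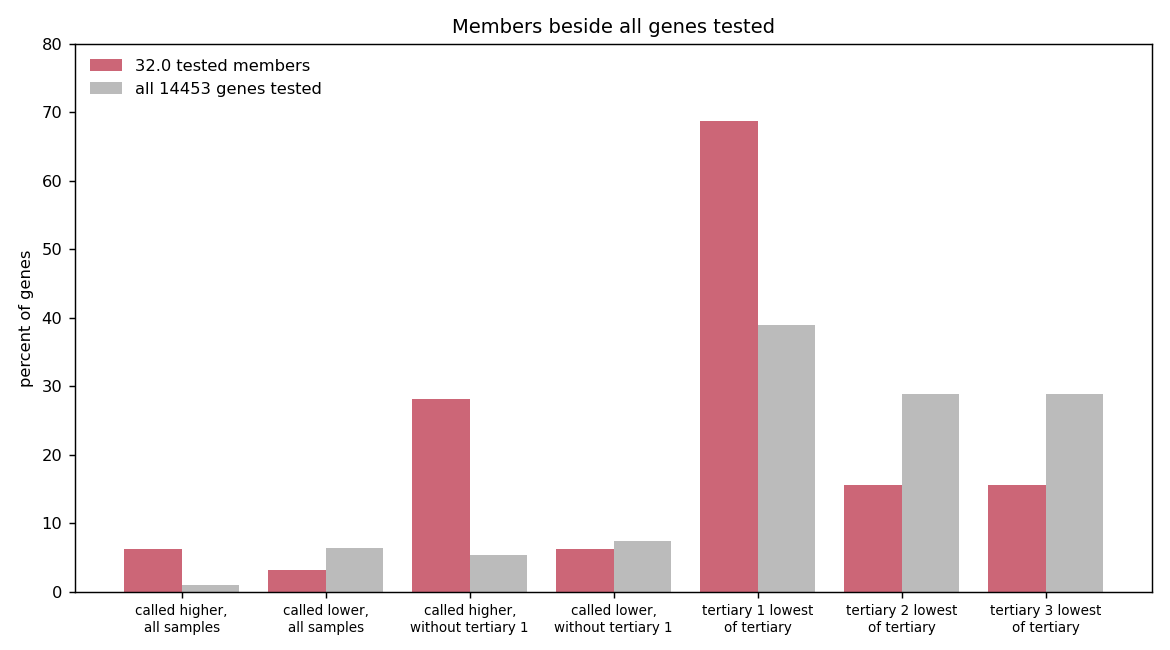
Percent of the 32 tested genes (red) and of all 14453 genes tested (grey) that were called higher or lower, with all samples and without tertiary glioma 1, and in which each tertiary glioma was the lowest of the 3. Tertiary glioma 1 was the lowest in 68.8% of the 32 genes against 38.9% of all genes.

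Where a gene had several probes, the others mostly moved the same way. The 34 genes with ordinary probes had 76 probes, and 22 genes had more than 1. Of 41 other probes above the dim filter, 38 had the sign of the chosen probe. The 3 exceptions were in Egln3 (log2 fold change -0.04), Pdk1 (-0.05) and Slc16a1 (-0.16), and their chosen probes were not called either.

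Neighbouring pathways were followed through further lists. Of 30 other glycolysis and gluconeogenesis genes 25 were tested, 0 were called higher and 2 lower, and the median log2 fold change was 0.07. Hk3, the hexokinase of myeloid cells, read 7.44, 7.66, 8.18 and 7.35 in the secondary gliomas and 5.52, 5.75 and 5.36 in the tertiary gliomas, a log2 fold change of -2.12 ± 0.22 (SE, adjusted p 0.000834). Slc2a5, a fructose transporter found on microglia, had a log2 fold change of -1.93 ± 0.42 (SE, adjusted p 0.0331). The Slc2a5 call was lost without secondary glioma 2 or 4 (adjusted p 0.0745 and 0.0714) and without tertiary glioma 1, 2 or 3 (0.0504, 0.107 and 0.117). Both fell beside the microglia and macrophage markers, whose mean was 10.05 to 10.84 in the secondary and 5.94 to 6.76 in the tertiary gliomas, and the part of myeloid RNA in their values was not tested.

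In the pyruvate dehydrogenase list 0 of 11 tested genes of 13 were called by limma, with 2 at an unadjusted p under 0.05. These were Pdhx and Pdha1, a binding subunit and the catalytic alpha subunit of the complex, with log2 fold changes of 0.70 (adjusted p 0.0739) and 0.44 (0.190) and no overlap between the groups. In the pentose phosphate pathway 0 of 9 tested genes of 10 were called, with 5 at an unadjusted p under 0.05. Pgd and H6pd, which yield NADPH, had the lowest p, with log2 fold changes of -0.57 (adjusted p 0.0608) and -0.60 (0.0856). The medians of these lists were 0.16 and 0.09.

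Of 17 other genes of the HIF machinery 15 were tested, and Siah1a alone was called. Siah1a, a ubiquitin ligase that acts on prolyl hydroxylases, read 8.40, 8.40, 8.34 and 8.60 in the secondary gliomas and 9.26, 8.95 and 8.99 in the tertiary gliomas (log2 fold change 0.64 ± 0.14, SE, adjusted p 0.0332). Its call was lost without secondary glioma 1, 2, 3 or 4 (adjusted p 0.0720, 0.0910, 0.0718 and 0.0511) and without tertiary glioma 2 or 3 (0.0707 and 0.0847).

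Of 40 other hypoxia response genes 36 were tested, 3 were called higher and 4 lower, and 19 had an unadjusted p under 0.05. Their median log2 fold change was 0.18. Ppfia4, a liprin of synapses and a HIF target, read 8.13, 8.48, 8.86 and 8.40 in the secondary gliomas and 4.71, 4.74 and 4.12 in the tertiary gliomas, a log2 fold change of -3.95 ± 0.23 (SE, adjusted p 8.02e-05). Rab20, a small GTPase of endosomes, had a log2 fold change of -2.75 and an adjusted p of 0.00219, and both genes were called in 17 of 17 alternatives. Hmox1, heme oxygenase, had a log2 fold change of -0.84 (adjusted p 0.0176), a call lost without secondary glioma 4 (0.0569) and without tertiary glioma 2 or 3 (0.0660 and 0.0777). Stc2, stanniocalcin 2, a secreted glycoprotein, had one of 2.51 (adjusted p 0.0190), a call lost without secondary glioma 1 (0.0510) and without tertiary glioma 2 (0.0798). Myeloid markers fell in the same comparison, and the part of myeloid RNA in the values of Ppfia4, Rab20 and Hmox1 was not tested.

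The remaining calls of this list are named after their values were seen. Lox, lysyl oxidase, which cross-links collagen, had a log2 fold change of -2.22 (adjusted p 0.0280), and its call was lost without secondary glioma 2, 3 or 4 (0.0764, 0.0769 and 0.0783) and without tertiary glioma 2 (0.0928). Ak4, a mitochondrial adenylate kinase, had a log2 fold change of 1.46 (adjusted p 0.0415). Its call was lost without secondary glioma 1, 2, 3 or 4 (0.0821, 0.0833, 0.0698 and 0.0563) and without tertiary glioma 2 or 3 (0.138 and 0.139). It was also lost with the mean of all its probes (log2 fold change 1.10, adjusted p 0.109), and 8 of 17 alternatives kept it. Stc1, stanniocalcin 1, had a log2 fold change of 0.88 (adjusted p 0.0445), and its call was kept only without secondary glioma 2 among the samples left out. Its adjusted p was 0.0832, 0.107 and 0.0811 without secondary glioma 1, 3 or 4 and 0.0730, 0.153 and 0.0804 without tertiary glioma 1, 2 or 3.

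Of the other cell type lists, 0 of 8 endothelial genes were called by limma (3 at an unadjusted p under 0.05, with the lowest in Cdh5 and Flt1), as were 0 of 9 astrocyte genes (2, in Aldh1l1 and Aqp4), 0 of 9 neuron genes (2, in Tubb3 and Map2) and 0 of 2 red blood cell genes (0, Alas2 and Slc4a1). Of 8 pericyte and mural genes 2 were called lower. These were Anpep (log2 fold change -1.88, adjusted p 0.0177), whose call was lost without secondary glioma 4 (0.0539) or tertiary glioma 2 or 3 (0.0731 and 0.0708), and Abcc9 (-1.59, 0.0432), whose call was lost without secondary glioma 2 or 4 (0.0625 and 0.0989) or any tertiary glioma (0.0518, 0.154 and 0.129). The tertiary means of Anpep and Abcc9, 3.55 and 3.42, were under the dim filter of 3.99. Both genes passed it through the secondary gliomas, with means of 5.44 and 5.01, so the size of their fall is uncertain. Aldoc stands in both the astrocyte list and the glycolytic enzymes, and Eno2 in both the neuron list and the glycolytic enzymes.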

How the data were processed

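Total RNA of sorted EGFP-positive cells was extracted with Trizol, amplified with the NuGEN Ovation Pico WTA kit and hybridised to mouse expression arrays, per the labels' protocols. The deposited values are log2 expression values made by the authors with RMA, per the submitters' processing notes. No RMA version is stated there, and the range of the values gave the log base. Quantile steps in RMA give the arrays like distributions, which would mask a shift of most genes, and RMA shrinks differences of dim probes. No scan batch was tested, as scanner files were not used. The precision is limited by the small number of arrays.

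The table held 45101 probes, with 1 gene symbol for 34945, several for 932 and none for 9160, beside 64 control probes. A gene identifier of 34741 named probes was found in RefSeq's GRCm38.p6 table. No build is stated for the array, so coordinates are given only for RefSeq promoters. Epas1, Slc2a3 and Ndrg1 were not matched in the promoter table. At most 5.39% of probes had identical values on a pair of arrays, so all were counted as separate samples.

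The fit used limma 3.58.1 (lmFit, eBayes, no covariate) in R 4.3.3 over 14453 genes, 4 secondary and 3 tertiary gliomas grouped by the labels. Log2 fold changes are tertiary minus secondary. On simulated data with 14453 genes and the spread of this comparison, the fit recovered 53% of 100 genes with a true log2 change of 1, and 89% of 100 genes with a change of 2, with 7 false calls. Tables and figures used Python 3.11.15, pandas 2.3.3, numpy 2.4.6 and matplotlib 3.10.9.

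The members, the 13 further lists and the tests were chosen with earlier results of these data known. All members may be named. Of each further list up to 4 called genes by lowest p are named, or, with no call, the 2 of lowest p, and other probes of a member where sign or call differs. Other probes of Adm, Epas1 and Hif1a are given as well. Alternatives were the mean of all probes, each probe alone, no dim filter or one at the 50th percentile, quantile normalization, median centring, array weights, trended and robust variances, a replicate block and leaving out each sample. Adding the Gapdh control probe, and leaving out both secondary glioma 3 and tertiary glioma 1, were chosen after seeing the data.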

Additional observations from a re-analysis of the deposited data

Results flagged for a closer look

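In 3 of 35 genes 1 of the 4 secondary gliomas lay far from the other secondary gliomas by Dixon's criterion, which chance meets in about 1 of 20 groups. Gapdh read 11.73 in secondary glioma 3, below the nearest value of 11.93 (ratio of gap to range 0.890). Egln3 read 5.99 in secondary glioma 1, below 6.47 (ratio 0.835). P4ha2 read 4.73 in secondary glioma 1, above 3.47 (ratio 0.948), on a probe below the dim filter.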

How the results depend on the processing

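With 3 and 4 arrays the calls near the threshold moved with the setting, and in each case below the cause was not tested. The count of the 32 genes called lower, 1 with all samples, was 2 with the mean of all probes, 0 with no dim filter, 2 with the filter at the 50th percentile, 0 with median centring and 4 with array weights. With quantile normalization or trended and robust variances it stayed at 1, but the gene was Hif1a in place of Ndrg1. The count called higher, 2 with all samples, was 1 with no dim filter, 6 with array weights, 1 with trended and robust variances and 7 without both secondary glioma 3 and tertiary glioma 1. Leaving out each sample in turn gave 0 to 2 called lower and 0 to 9 called higher. Over all genes, 151 were called higher, and 668 with array weights, 543 without both of those samples and 27 to 781 when each sample was left out. The replicate block gave 0 members called lower and 1 higher (Ero1a), and 575 genes lower (915 without it) and 61 higher over all genes. Same-numbered samples did not deviate together (correlations of 0.04, -0.14 and 0.01). The labels do not say which secondary glioma gave which tertiary glioma, and such correlations cannot settle it, so whether the numbers pair the samples is not known.

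The median log2 fold change of the glycolytic enzymes ran from 0.13 to 0.35 when each sample was left out. That of the oxygen sensing genes was -0.32 with the mean of all probes and 0.08 without both samples, and ran from -0.28 to 0.11. That of the non-glycolytic hypoxia genes was 0.67 and 0.083 in the same settings, and ran from 0.17 to 0.48. Reversals concerned genes that were not called. They were Aldoc (-0.13) and Slc2a1 (0.092) with array weights, Slc16a1 (-0.00095) with the mean of all probes and Mxi1 (0.0079) with median centring. Other probes gave -0.16 in Slc16a1, -0.053 in Pdk1 and -0.039 in Egln3. When each sample or both of those samples were left out, log2 fold changes ran from -0.39 to 0.84 in Pfkl, -0.61 to 0.029 in Pfkm, -0.22 to 0.59 in Aldoc, -0.11 to 0.66 in Tpi1, -0.15 to 0.18 in Ldhb, -0.40 to 0.19 in Slc2a1, -0.037 to 0.51 in Slc16a1, -0.18 to 1.03 in Pdk1 and -0.15 to 0.061 in Mxi1. Probes near the dim filter, such as those of Car9 and P4ha2, limit what can be said of those genes.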
